A study of Homo sapiens with 6 samples.

Results

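The genes described here encode the machinery that carries a signal from a receptor coupled to a G protein to the cyclic nucleotides cAMP and cGMP. They are the rows of the deposited table whose names are those of RGS proteins, G-alpha subunits, adenylyl cyclases or phosphodiesterases numbered and lettered A to D, 71 of 60676 genes in all. Of these, 21 are RGS genes, 19 carry G-alpha names (3 of them pseudogenes), 10 are adenylyl cyclases and 21 are phosphodiesterases. Within these families the genes were chosen by name alone, while the families were chosen with earlier results of these data known. RNA was sequenced from the human line NCI-H226, given in the labels as pleural mesothelioma. The cells had received 500 nM HC278 (3 libraries, replicates 1, 2 and 6) or the vehicle DMSO (3 libraries, replicates 1, 2 and 3), in each case for 24 h. HC278, which the labels also write as HC31278A, is named in the title as a TEAD degrader. TEAD is the transcription factor family at the end of the Hippo pathway. All libraries come from 1 cell line, and the labels do not state separate cultures for the replicates. The p-values therefore rest on library-to-library spread alone, and this may be technical.

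A receptor that binds its ligand makes the G-alpha subunit exchange GDP for GTP and part from the beta-gamma dimer. Gs subunits stimulate adenylyl cyclases, Gi/o subunits inhibit them, Gq/11 subunits act on phospholipase C beta, and G12/13 subunits act on exchange factors of RhoA. RGS proteins speed the hydrolysis of GTP by G-alpha and so shorten the signal. Adenylyl cyclases make cAMP, and phosphodiesterases break down cAMP, cGMP or both. G12/13 and Gq/11 subunits are also known to pass signals from receptors to YAP and TAZ, the partners of TEAD, while cAMP acting through protein kinase A is known to restrain them.

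Promoter windows of RefSeq (GRCh38.p14, 250 bases before to 50 after a transcript start) matched 56 of the 71 genes, 33 of the 42 that could be tested and 9 of the 11 that passed the test. They were searched on both strands for GGAATG, the core of the MCAT element that TEAD factors bind, and for TGACGTCA, the full cAMP response element, which is its own reverse complement. GGAATG was present in 7 of 89 windows of tested genes (7.87%), against 14.0% of all 35116 windows, and TGACGTCA in 2 of 89 (2.25%), against 1.85% of all windows. Shown are the windows of genes that passed the test and held either motif, and that of RGS7, the gene with the largest fall, whose start site is that of the gene in the table. Capitals mark the motif. A match is a description of the letters and shows neither binding nor a cause.
RGS7, chr1:241357181-241357480, minus strand, no match: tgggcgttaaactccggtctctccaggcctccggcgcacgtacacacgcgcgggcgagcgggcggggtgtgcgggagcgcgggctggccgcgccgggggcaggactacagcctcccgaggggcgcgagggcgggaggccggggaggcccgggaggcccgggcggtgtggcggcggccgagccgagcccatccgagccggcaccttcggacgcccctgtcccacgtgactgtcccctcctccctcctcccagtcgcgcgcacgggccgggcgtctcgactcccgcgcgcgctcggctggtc
PDE7B, chr6:135851451-135851750, plus strand, TGACGTCA from position -155: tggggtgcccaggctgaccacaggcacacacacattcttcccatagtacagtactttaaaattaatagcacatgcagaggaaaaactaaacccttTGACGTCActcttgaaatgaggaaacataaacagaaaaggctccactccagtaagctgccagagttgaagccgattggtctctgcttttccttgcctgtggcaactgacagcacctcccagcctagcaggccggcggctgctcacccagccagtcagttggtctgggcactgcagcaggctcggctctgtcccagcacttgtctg
PDE1C, chr7:32299279-32299578, minus strand, GGAATG from position -174: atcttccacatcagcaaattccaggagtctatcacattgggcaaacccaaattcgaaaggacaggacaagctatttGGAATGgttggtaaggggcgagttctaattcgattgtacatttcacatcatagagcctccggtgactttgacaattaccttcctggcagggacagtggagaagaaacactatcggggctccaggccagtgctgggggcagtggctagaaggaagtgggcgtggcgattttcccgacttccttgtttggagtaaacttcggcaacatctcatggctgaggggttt
PDE1C, chr7:32071387-32071686, minus strand, GGAATG from position -42: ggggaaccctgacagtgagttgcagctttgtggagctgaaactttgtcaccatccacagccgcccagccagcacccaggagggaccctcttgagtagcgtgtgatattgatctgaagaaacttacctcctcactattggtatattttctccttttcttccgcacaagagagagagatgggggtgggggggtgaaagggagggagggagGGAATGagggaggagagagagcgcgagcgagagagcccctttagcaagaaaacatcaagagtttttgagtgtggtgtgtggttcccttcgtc
GNA11, chr19:3094112-3094411, plus strand, GGAATG on the opposite strand from position -232: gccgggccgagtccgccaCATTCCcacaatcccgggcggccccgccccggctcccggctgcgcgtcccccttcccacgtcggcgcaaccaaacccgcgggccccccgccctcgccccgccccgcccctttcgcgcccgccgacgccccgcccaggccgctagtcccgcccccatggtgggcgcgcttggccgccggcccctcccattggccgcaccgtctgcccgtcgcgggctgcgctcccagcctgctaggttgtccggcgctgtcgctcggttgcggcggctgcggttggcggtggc
Positions count back from the transcript start. Both PDE1C windows belong to transcripts that start inside the gene, 128803 and 356695 bases from its outermost start in the table, whereas the RGS7, PDE7B and GNA11 windows lie at that outermost start.

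Library totals lay between 30486316 and 33181814 counts, at which 3 counts correspond to 0.0904 to 0.0984 CPM (counts scaled to library size), for counting error only. HC278 replicate 6 stood apart from the other treated libraries. Over tested genes the median deviation of log2 CPM from the gene's mean was higher in the longest 25% of genes than in the shortest 25% by 0.60 in HC278 replicate 6 and 0.35 in DMSO replicate 3. In HC278 replicates 1 and 2 that difference was -0.53 and -0.30, and in DMSO replicates 1 and 2 it was -0.12 and -0.03. Of the markers of the labelled cell type, 9 of 10 mesothelial genes could be tested, 3 of which were higher and 1 lower under HC278, and KRT5 had at most 1 count. The 5 immune markers summed to between 62.4 and 78.0 CPM in HC278 libraries and between 37.7 and 38.9 CPM in DMSO libraries. Nearly all of each sum was CD68, at 75.6, 74.2 and 61.1 CPM under HC278 and 37.1, 38.1 and 37.4 CPM with DMSO. CD68 and CD14 were called higher, while CD3E was at 0 in every library and PTPRC reached 11 counts. The part of these markers in the results below was not tested.

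Of the 71 genes, 42 had enough counts for the test, and 11 of these changed, 4 higher and 7 lower under HC278 (edgeR quasi-likelihood test, p adjusted by Benjamini-Hochberg over 15510 genes, threshold 0.05). That is 26.2% of the tested members, against 10.8% of all tested genes, of which 5.4% were higher and 5.38% lower. RGS7, PDE1C, RGS4, GNAZ, PDE6D, ADCY3 and GNA11 fell, and RGS3, PDE2A, RGS11 and PDE7B rose. In 20 of the 42 members the CPM of the groups did not overlap, against 34.6% of all tested genes. These 20 include PDE7B and RGS17, which met the filter through their HC278 libraries. The median log2 fold change was -0.02 over the 42 members and 0.05 over all tested genes, with 21 members above 0 and 21 below. With library size alone in place of TMM factors, 5 members passed as higher and 5 as lower, beside 709 and 650 of all tested genes.

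**Figure D1:**
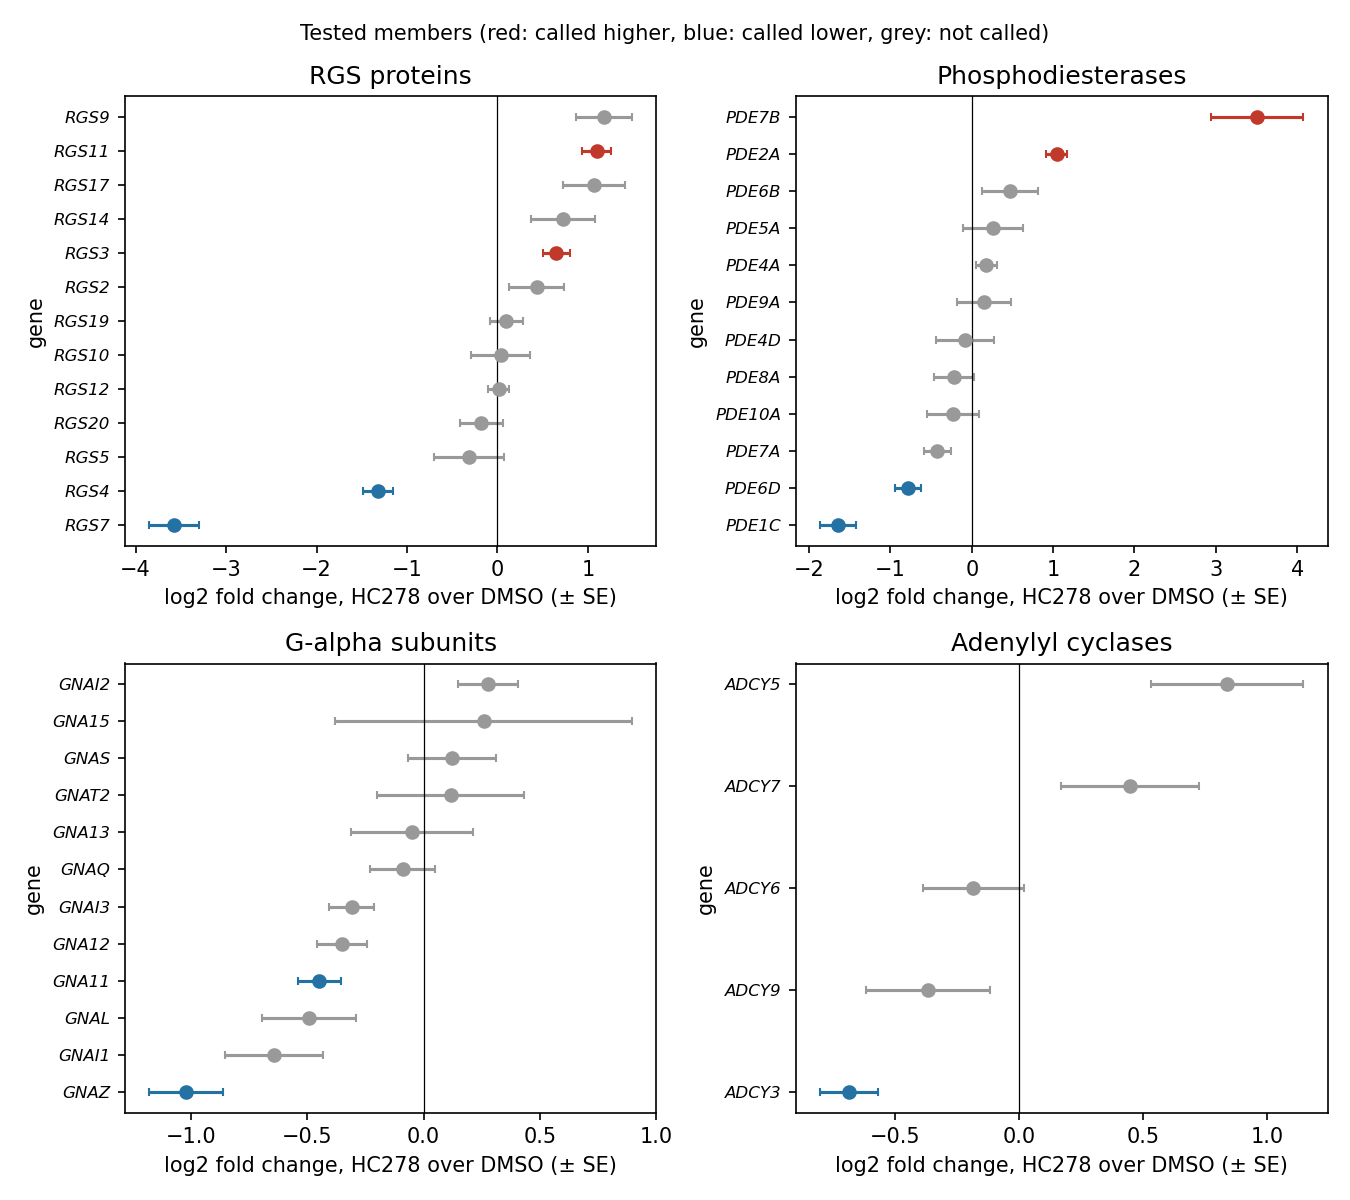
Log2 fold change of HC278 over DMSO (x axis, bars ± SE from edgeR) for the 42 tested genes, a panel per family with genes down the y axis; red genes were called higher, blue genes lower, grey genes not called. RGS7 at -3.57 and PDE7B at 3.51 lie far outside the range of the other genes, which runs from -1.65 to 1.18.

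Among G-alpha subunits 2 of 12 tested genes fell, 0 rose and 10 did not pass. GNAZ, which encodes a Gi/o subunit insensitive to pertussis toxin, was at 4.52, 5.17 and 3.77 CPM under HC278 (replicates 1, 2 and 6), while the DMSO replicates 1, 2 and 3 gave 8.86, 8.91 and 9.54 CPM. Every HC278 library lay below every DMSO library. The mean was 4.49 ± 0.698 CPM under HC278 and 9.10 ± 0.381 CPM with DMSO (SD, n = 3 each), a log2 fold change of -1.02 (SE 0.16, edgeR adjusted p = 0.0150). In such bulk RNA, fewer cells of a kind and less RNA per cell cannot be told apart. GNAZ (ENSG00000128266) spans chromosome 22 from 23070519 to 23125032 in hg38, plus strand. GNA11, a ubiquitous subunit of the Gq/11 class, had 68.4, 67.6 and 66.8 CPM in the HC278 libraries and 93.2, 91.7 and 91.8 CPM in the DMSO libraries. Its fall was small but even, at 67.6 ± 0.838 CPM under HC278 against 92.2 ± 0.837 CPM with DMSO (log2 -0.45, SE 0.09, adjusted p = 0.0330; ENSG00000088256, chromosome 19, 3094362 to 3123999, plus strand). GNA11 did not pass with upper quartile factors, library size alone or no filter.

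GNAS, which encodes the stimulatory subunit Gs, was by far the most abundant G-alpha gene per length. It had 177, 189 and 191 TPM (transcript abundance corrected for length, as deposited) in HC278 replicates 1, 2 and 6, against 184, 183 and 178 TPM in the DMSO libraries. In CPM, GNAS was at 1001, 947 and 675 in these HC278 libraries and at 858, 829 and 722 in the DMSO libraries. HC278 replicate 6 was thus the highest library in TPM and the lowest in CPM. The groups overlapped in both measures, and GNAS did not pass (log2 0.12, SE 0.19, adjusted p = 0.742). It made up between 32.6% and 43.6% of the summed TPM of the family in any library. Next in order of mean TPM were GNAI2, an inhibitory subunit, at 87.8 ± 10.6 TPM under HC278 and 76.1 ± 2.28 TPM with DMSO (SD, n = 3 each), and GNA12 at 61.7 ± 17.9 and 81.0 ± 9.56 TPM. GNAI3, GNA11, GNA13 and GNAQ followed with group means of 30.9 to 47.1 TPM. Under HC278 their levels overlapped each other, while with DMSO every library of GNAI3 and GNA11 lay above every library of GNA13 and GNAQ. The close relatives of GNAZ in the inhibitory class did not share a direction: GNAI1 and GNAI3 had log2 values of -0.65 and -0.31 (adjusted p = 0.111 and 0.0970) and GNAI2 had 0.28 (adjusted p = 0.236). GNA12 and GNA13 of the G12/13 class were at -0.35 and -0.05, and GNAQ was at -0.09. GNAL, the Gs relative of olfactory neurons, was at -0.49 (adjusted p = 0.184) and MPPE1, which overlaps it from the opposite strand, has 418% of its counts. GNAT2 of cone photoreceptors and GNA15 of blood cells were barely present, with at most 12 and 15 counts in a library.

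**Figure D2:**
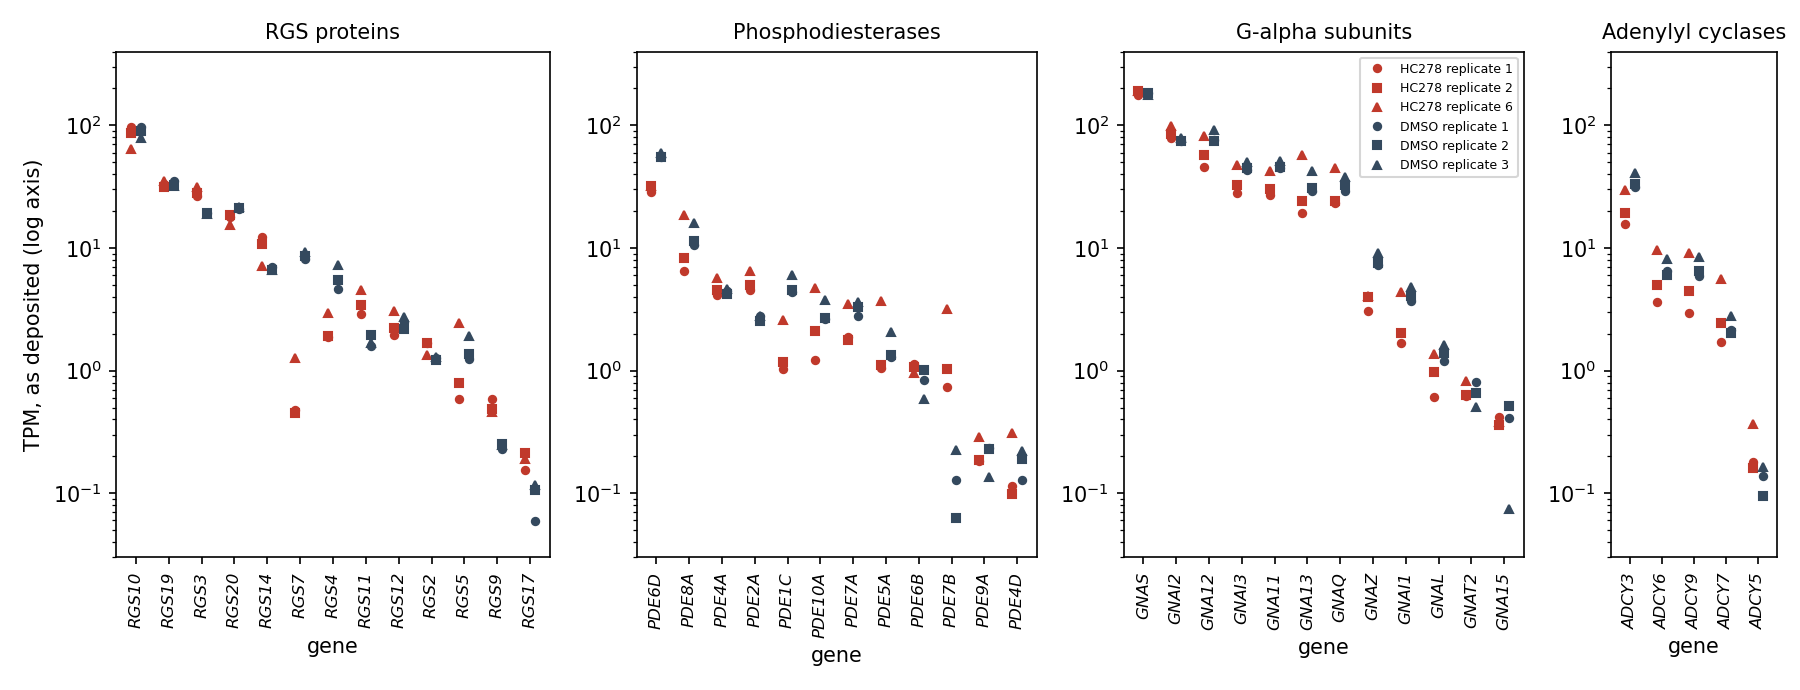
TPM as deposited (y axis, log scale) of the 42 tested genes in each of the 6 libraries, a panel per family with genes on the x axis in order of mean TPM; red symbols are HC278 and dark symbols DMSO libraries. GNAS, RGS10, PDE6D and ADCY3 lead their families, and in many genes the red triangle of HC278 replicate 6 lies above the other red symbols.

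RGS genes moved in both directions: of 13 tested, 2 rose, 2 fell and 9 did not pass. RGS7, which in neurons forms a complex with the beta subunit GNB5 and acts on Gi/o subunits, had 0.491, 0.412 and 0.818 CPM under HC278, compared with 6.89, 7.07 and 6.80 CPM in the DMSO libraries. In counts these were 14, 13 and 28 under HC278 and 220, 234 and 230 with DMSO, so that the level was 11.9-fold lower under HC278 in the fit (log2 -3.57, SE 0.28, adjusted p = 0.00393). RGS7 (ENSG00000182901) spans chromosome 1 from 240775515 to 241357230, minus strand. AL365184.1, which overlaps RGS7 on the opposite strand and shares 240 exon bases with it in GENCODE release 29, had counts equal to 24.4% of those of RGS7 and fell as well (log2 -3.83, adjusted p = 0.00829). It was picked out after its values were seen. The strand setting of the counting is not given in the sources used here, so reads of such pairs may not be told apart.

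The other tested genes of the R7 subfamily, to which RGS7 belongs, lay on the other side of 0. RGS11 had 5.54, 5.83 and 5.44 CPM in the HC278 libraries and 2.50, 3.02 and 2.33 CPM in the DMSO libraries. It rose to 5.60 ± 0.205 CPM under HC278, against 2.62 ± 0.358 CPM with DMSO (log2 1.10, SE 0.16, adjusted p = 0.0131; ENSG00000076344, chromosome 16, 268301 to 275980, minus strand). FAM234A, on the opposite strand with 196 shared exon bases and 1919% of the counts of RGS11, was at 94.1 ± 18.6 CPM under HC278 and 64.1 ± 5.78 CPM with DMSO (log2 0.55, adjusted p = 0.104), which makes RGS11 uncertain. RGS9, best known from photoreceptors and striatum, had 1.65, 1.20 and 0.818 CPM under HC278 and 0.532, 0.574 and 0.502 CPM with DMSO. It missed the threshold (log2 1.18, adjusted p = 0.0647) though the groups did not overlap. Per length, the summed TPM of the R7 genes was 3.96, 4.38 and 6.27 in HC278 libraries, against 9.93, 10.8 and 11.1 in DMSO libraries. Without RGS7 the sum was 3.48, 3.93 and 4.998 TPM under HC278 and 1.81, 2.21 and 1.95 TPM with DMSO, so the order of the groups in this subfamily was set by RGS7.

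In the R4 subfamily of small RGS proteins, RGS4 fell and RGS3 rose. RGS4, which acts on Gi/o and Gq subunits, had 3.61, 3.26 and 3.57 CPM in the HC278 libraries and 7.39, 8.58 and 10.1 CPM in the DMSO libraries (log2 -1.32, SE 0.17, adjusted p = 0.00849; ENSG00000117152, chromosome 1, 163068775 to 163076802, plus strand). The 3 HC278 values were close together and all below the DMSO values. RGS3, the third RGS gene in order of TPM, had 146, 137 and 108 CPM under HC278 and 88.2, 85.8 and 74.6 CPM with DMSO. Its mean was 130.2 ± 19.4 against 82.9 ± 7.28 CPM (log2 0.65, SE 0.15, adjusted p = 0.0444; ENSG00000138835, chromosome 9, 113444731 to 113597743, plus strand). RGS3 did not pass with no filter or with the trend on gene length taken out. RGS5, a neighbour of RGS4 known from pericytes, and RGS2, which prefers Gq, did not pass (log2 -0.31 and 0.43). NUF2, on the opposite strand with 0 shared exon bases, has 1116% of the counts of RGS5 and fell (log2 -1.16, adjusted p = 0.00774). AL592435.1, on the same strand with 534 shared exon bases, has 54.2% of them and did not pass (log2 0.66). The RGS5 value is therefore uncertain.

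Apart from RGS3, the RGS genes with the highest mean TPM were RGS10, RGS19, RGS20 and RGS14, of the R12 and RZ subfamilies. RGS12 and RGS17 of the same subfamilies had lower means than RGS7 and RGS4. No member of these subfamilies passed. RGS10, the most abundant, had 97.7, 85.9 and 64.6 TPM in HC278 replicates 1, 2 and 6, against 96.9, 89.7 and 78.9 TPM in the DMSO libraries. The groups overlapped (log2 0.04, SE 0.33, adjusted p = 0.961). RGS19, known to bind Gi subunits at membranes, was at 33.4 ± 1.92 TPM under HC278 and 33.1 ± 1.59 TPM with DMSO (log2 0.10), and RGS20 at 17.2 ± 1.67 and 21.1 ± 0.483 TPM (log2 -0.18). RGS14, a scaffold that also binds Ras family proteins, had 18.02 and 14.0 CPM in HC278 replicates 1 and 2, above the DMSO range of 7.002 to 8.55 CPM, but 6.63 CPM in HC278 replicate 6 (log2 0.72, adjusted p = 0.263). RGS12 had 10.7 ± 0.209 CPM under HC278 and 10.6 ± 0.782 CPM with DMSO (log2 0.01). RGS17 had at most 19 counts in a library (log2 1.07, adjusted p = 0.105).

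**Figure D3:**
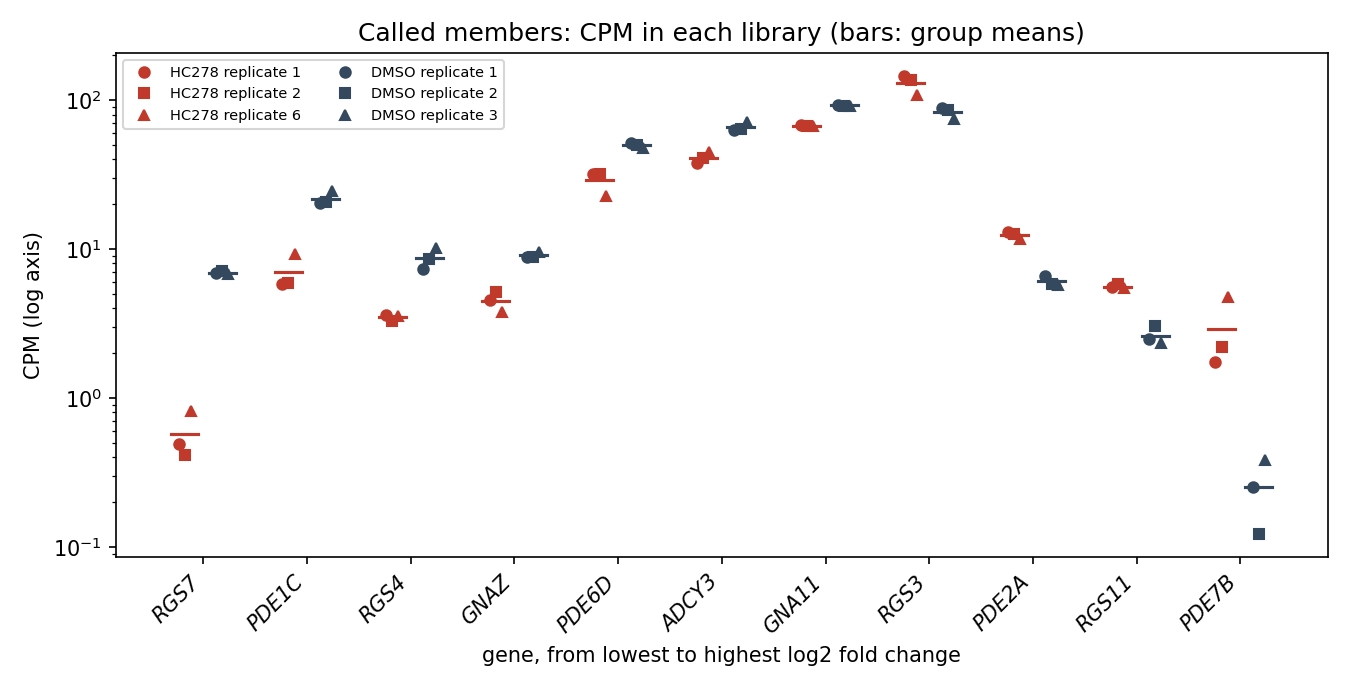
CPM over TMM-scaled library size (y axis, log scale) of the 11 called genes in each library, with genes on the x axis from the largest fall to the largest rise; red symbols are HC278 and dark symbols DMSO libraries, and short bars are group means. The groups do not overlap in any of the 11 genes, which range from under 1 CPM (RGS7 under HC278, PDE7B with DMSO) to over 100 CPM (RGS3 under HC278).

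Of 5 adenylyl cyclases tested, ADCY3 fell and 4 did not pass. ADCY3 is a membrane cyclase known for cilia and olfaction, and it was the most abundant cyclase, making up between 54.6% and 69.2% of the summed TPM of the family. It had 37.7, 41.1 and 44.9 CPM under HC278, compared with 63.3, 64.4 and 71.2 CPM in the DMSO libraries, with no overlap. The mean was 41.2 ± 3.62 against 66.3 ± 4.32 CPM (log2 -0.69, SE 0.12, adjusted p = 0.0194; ENSG00000138031, chromosome 2, 24819169 to 24919839, minus strand). ADCY3 shares 1488 exon bases with the centromere gene CENPO on the opposite strand, which has 53.4% of its counts and fell by 1.21 on the log2 scale (adjusted p = 0.00569), so the ADCY3 value is uncertain. It did not pass with library size alone. ADCY6 and ADCY9, next in level at 6.06 ± 3.09 and 5.49 ± 3.17 TPM under HC278 and 6.86 ± 1.13 and 6.98 ± 1.32 TPM with DMSO, were at log2 -0.18 and -0.37 and could not be ordered beyond their spread. ADCY7 had 11.9 CPM in HC278 replicate 6 but 5.85 and 7.42 CPM in HC278 replicates 1 and 2, against 5.62 to 6.82 CPM with DMSO (log2 0.45, adjusted p = 0.374), and BRD7 on the opposite strand has 985% of its counts. ADCY5 had at most 28 counts (log2 0.84, adjusted p = 0.145).

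Of 12 phosphodiesterase genes tested, 2 rose, 2 fell and 8 did not pass. The largest rise was that of PDE7B, a cAMP-specific enzyme, which had 50, 69 and 163 counts in HC278 replicates 1, 2 and 6, against 8, 4 and 13 counts in the DMSO libraries. This corresponds to 1.75, 2.19 and 4.76 CPM under HC278 and 0.2504, 0.121 and 0.384 CPM with DMSO (log2 3.51, SE 0.57, adjusted p = 0.0165; ENSG00000171408, chromosome 6, 135851701 to 136195574, plus strand). All HC278 libraries were higher, and replicate 6 had more than both other HC278 libraries. Without replicate 6 the log2 fold change was 2.94 (adjusted p = 0.00321). PDE7B met the filter through its HC278 libraries, as 8 and 4 counts in DMSO replicates 1 and 2 lie under the minimum count of 10. With no filter PDE7B also passed (log2 3.47, edgeR adjusted p = 0.00586). AL138828.1 on the opposite strand shares 452 exon bases, has 82.4% of the counts of PDE7B and was at 1.72 ± 0.147 CPM under HC278 and 0.909 ± 0.207 CPM with DMSO (log2 0.92, adjusted p = 0.0579). The PDE7B value is therefore uncertain. PDE2A, which degrades both cAMP and cGMP and is stimulated by cGMP, had 13.1, 12.7 and 11.7 CPM in the HC278 libraries and 6.64, 5.86 and 5.70 CPM in the DMSO libraries. It rose to 12.5 ± 0.732 CPM under HC278, against 6.07 ± 0.4997 CPM with DMSO (log2 1.04, SE 0.13, adjusted p = 0.00826; ENSG00000186642, chromosome 11, 72576141 to 72674591, minus strand).

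PDE1C, a calcium and calmodulin-stimulated enzyme that degrades both nucleotides, had 5.78, 5.89 and 9.21 CPM under HC278, compared with 20.5, 20.6 and 24.4 CPM in the DMSO libraries. Every HC278 value was below every DMSO value, with means of 6.96 ± 1.94 and 21.8 ± 2.21 CPM (log2 -1.65, SE 0.22, adjusted p = 0.00981; ENSG00000154678, chromosome 7, 31751179 to 32428131, minus strand). PDE6D carries a phosphodiesterase name but encodes a chaperone that binds prenylated proteins such as Ras family members and has no catalytic domain. It had 32.0, 32.1 and 22.8 CPM in HC278 replicates 1, 2 and 6 and 51.4, 49.9 and 48.1 CPM in DMSO replicates 1, 2 and 3, with no overlap. It fell to 28.98 ± 5.36 CPM under HC278, against 49.8 ± 1.67 CPM with DMSO (log2 -0.78, SE 0.16, adjusted p = 0.0326; ENSG00000156973, chromosome 2, 231732433 to 231786272, minus strand). COPS7B on the opposite strand, with 72 shared exon bases and 128% of the counts of PDE6D, was at log2 -0.41 (adjusted p = 0.138). The PDE6D value is therefore uncertain. PDE6D had the highest level of the phosphodiesterase names, at 28.4, 32.1 and 32.2 TPM under HC278 and 55.2, 55.0 and 59.3 TPM with DMSO.

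The most abundant catalytic phosphodiesterase was PDE8A, a cAMP-specific enzyme of high affinity, with 6.44, 8.28 and 18.4 TPM in HC278 replicates 1, 2 and 6 and 10.6, 11.5 and 15.9 TPM in the DMSO libraries. HC278 replicates 1 and 2 lay below and replicate 6 above all DMSO libraries, and PDE8A did not pass (log2 -0.22, SE 0.25, adjusted p = 0.648). PDE10A and PDE5A were also highest in HC278 replicate 6, at 26.7 and 8.83 CPM, and did not pass (log2 -0.23 and 0.27). PDE4A and PDE4D, cAMP-specific enzymes that anti-inflammatory drugs target, were at log2 0.18 and -0.08. PDE7A, the close relative of PDE7B, had 5.61, 4.66 and 6.49 CPM under HC278 and 6.85, 7.82 and 7.80 CPM with DMSO (log2 -0.42, adjusted p = 0.174), while MTFR1, which overlaps it in antisense at 488% of its counts, fell (log2 -0.50). PDE6B, a catalytic subunit of rods, and PDE9A were at 0.47 and 0.15. Summed per length, the cAMP-specific enzymes had 13.6, 15.8 and 31.7 TPM in HC278 libraries against 18.3, 19.3 and 24.8 TPM in DMSO libraries. The sums overlapped also for the cGMP-specific enzymes, at 2.54, 2.58 and 5.26 TPM under HC278 and 2.51, 2.79 and 2.96 TPM with DMSO, and for those that degrade both, at 6.90, 8.36 and 14.0 TPM under HC278 and 9.97, 9.90 and 12.7 TPM with DMSO. For PDE8A, TPM set HC278 replicate 6 further above DMSO replicate 3 (18.4 against 15.9) than CPM did (37.0 against 36.6). The overlap of the sums may thus depend on the measure, which was not tested. Over all phosphodiesterase names, PDE6D included, the sums did not overlap. They were 51.5, 58.8 and 83.2 TPM in HC278 libraries and 86.0, 87.0 and 99.7 TPM in DMSO libraries.

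The count of changed members depended on single libraries. All 11 called members also passed without HC278 replicate 6, where 24 of 42 members passed, 9 higher and 15 lower, against 40.6% of all tested genes (19.8% higher and 20.7% lower). The further 13 were RGS2, RGS9, RGS14, RGS17 and GNAI2 as higher and RGS5, ADCY9, GNA12, GNAI1, GNAI3, PDE7A, PDE8A and PDE10A as lower. Among them RGS17 met the filter through its HC278 libraries alone. RGS9 was then at log2 1.40 (adjusted p = 0.00901), RGS14 at 1.03 (0.00421) and GNAI1 at -0.91 (0.00198), and of these 3 GNAI1 alone also passed in the fit of 6 libraries corrected for the length trend. Without HC278 replicate 1, 7 members passed (background 5.15%): RGS7, RGS4, GNAZ, PDE1C, PDE2A, PDE7B and RGS11. Without HC278 replicate 2, RGS7 alone passed (1.59%), as it did without DMSO replicate 3 (1.54%), and RGS7 and RGS4 passed without DMSO replicate 1 (1.03%). Without DMSO replicate 2 edgeR called 0 members and 0% of all genes, with RGS7 at an adjusted p = 0.0502. In that fit 14 of 43 members had an unadjusted p under 0.05, beside 2864 of all 15979 tested genes. No other tool was run on that subset. Over all 16 other settings, adjusted p ran up to 0.0502 for RGS7, 0.0654 for RGS4 and PDE1C, 0.0702 for PDE2A, 0.0858 for RGS11, 0.0906 for GNAZ and 0.0920 for PDE7B. It ran up to 0.107 for ADCY3, 0.142 for PDE6D, 0.175 for GNA11 and 0.190 for RGS3.

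**Figure D4:**
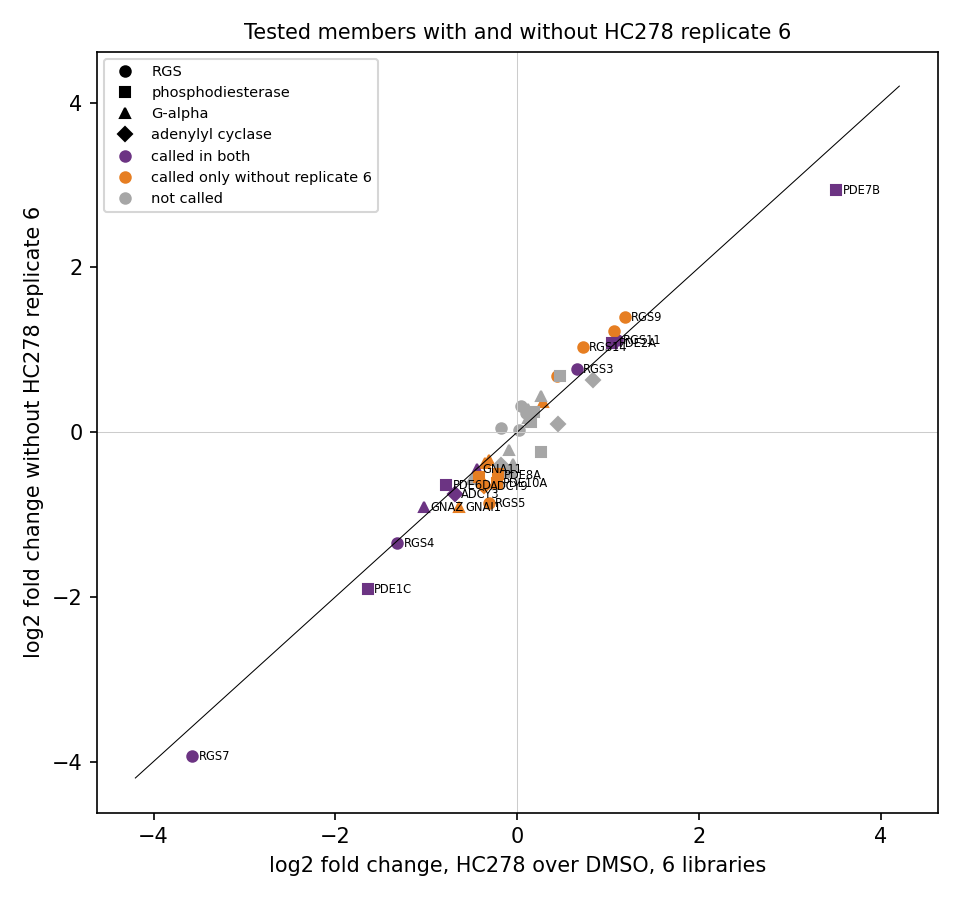
Log2 fold change of HC278 over DMSO of the 42 tested genes with all 6 libraries (x axis) and without HC278 replicate 6 (y axis); symbols give the family, purple genes were called in both fits, orange genes in the second alone, and the line marks equal values. The purple genes lie near the line, with PDE7B at 3.51 and 2.94, while RGS5 moved to -0.86 without the library, against -0.31 with it.

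Around these genes, lists of G protein and cyclic nucleotide partners held 85 tested genes, of which 8 rose, 4 fell and 73 did not pass. The share called, 14.1%, was near the 10.8% of all tested genes, so the calls below describe single genes and not the lists. PKIB, an inhibitor of protein kinase A, was the 1 gene of 9 among kinase subunits and inhibitors to pass, with 3.75, 4.09 and 3.62 CPM in HC278 libraries against 1.47, 1.51 and 1.15 CPM in DMSO libraries (log2 1.47, SE 0.18, adjusted p = 0.00846). Among 8 tested receptors coupled to Gs, the adenosine receptor gene ADORA2B fell (log2 -0.85) and PTGIR, the prostacyclin receptor gene, rose (log2 1.25). RAPGEF3, which encodes the cAMP-activated exchange factor EPAC1, rose (log2 0.62), as did the CREB co-activator CRTC1 (log2 0.58), 1 of 8 genes of the CREB family. Of 10 tested CREB target genes PER1 rose (log2 0.66) and SIK1 fell (log2 -0.73). GNG7 alone rose among 6 gamma subunits (log2 0.62), ARRB1 among 7 receptor kinases and arrestins (log2 1.22) and PLCB2 among 4 phospholipase C beta genes (log2 1.11). GPSM2, a regulator of G-alpha and of spindle orientation, fell (log2 -0.85) among 14 partners of RGS and G-alpha proteins. With all 6 libraries 0 of 5 beta subunits, 8 A-kinase anchors and 4 guanylyl cyclase and PKG genes passed. Without HC278 replicate 6, 18 partners passed as higher and 21 as lower, against the 40.6% of all tested genes given above. Among these were 4 A-kinase anchors and 1 beta subunit as lower and 1 guanylyl cyclase or PKG gene as higher. Each of the 12 calls was lost in between 4 and 8 of 16 other settings, with adjusted p up to 0.194.

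The remaining 29 genes had too few counts for the test. Of these, 7 had 0 counts in every library: the pseudogenes GNAQP1, GNAI2P1 and GNAI2P2, the RGS genes RGS13, RGS21 and RGS22, and GNAT3 of taste cells. A further 16 reached between 1 and 4 counts in a library, among them GNAO1 and RGS6 of neurons, GNAT1 of rods and ADCY8. The other 6 were ADCY4, PDE3A, PDE3B, PDE4C, PDE6A and RGS18, with at most 28 counts. RGS18, known from platelets, had 0, 0 and 1 counts in HC278 libraries and 7, 9 and 5 counts in DMSO libraries, and with no filter it passed as lower (adjusted p = 0.0466). PDE4C had 17, 5 and 28 counts in HC278 libraries and 8, 5 and 7 counts in DMSO libraries, and with no filter it did not pass (adjusted p = 0.343).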

How the data were processed

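The 6 RNA libraries of NCI-H226 were grouped by sample title. Per the labels, cells grew in DMEM with 10% FBS and libraries were made with a stranded mRNA kit. The deposited table gives raw counts per gene, in whole numbers, per the file headers. The deposited RPKM and TPM are the authors' own, and RPKM was not used. The deposited measure named CPM is a scaled signal whose column sums differ from those of plain CPM, and it was not used. The submitters' processing notes give hg38 as the build. Which aligner, counter, strand setting and gene annotation served is not given in the sources used here.

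The test on all genes' counts was that of edgeR 4.0.16 (R 4.3.3; glmQLFit, glmQLFTest, TMM factors, filterByExpr with a minimum count of 10). An adjusted p (Benjamini-Hochberg over all 15510 tested genes) under 0.05 is called changed. CPM was computed from the counts over TMM-scaled library size, and SE is the size of log2 fold change over root F. TPM, as deposited, served for levels between genes and for summed levels of families and subfamilies in each library. The fit was tested on simulated data. It called 15 of 100 genes given a log2 change of size 1 and 75 of 100 given a change of size 2. Of 15092 genes given a change of 0 it called 6. A gene that did not pass may therefore still have changed. Every pair of libraries in a group differed beyond sampling noise, with chi-square over degrees of freedom from 4.02 to 313. Values per library are given for called members and for the most abundant of each family, the others by fold change, and up to 4 called partners per list. Overlapping genes were taken from the table's coordinates and shared exon bases from GENCODE release 29. Families, lists and tests were chosen with earlier results of these data known. Alternatives were other scalings, DESeq2 1.42.0, limma-voom (limma 3.58.1), other filters, the replicate number as a block, each library left out, DMSO replicate 3 and HC278 replicate 6 left out together, and a loess trend (span 0.5) of each library on gene length taken out, with relative length recovered from counts over TPM. Figures were drawn with matplotlib 3.10.9. Some genes that enter the counts of the partner and marker lists are not reported here.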

Additional observations from a re-analysis of the deposited data

How the results depend on the processing

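All 11 called members kept their sign in the 16 other settings run. Counts of called members stayed within 1.5 times of the main count under every scaling, filter and tool and with the length trend taken out. Leaving out 1 library gave 0 to 9 members higher and 0 to 15 lower, and 0 to 3133 genes higher and 0 to 3280 lower over all genes. Without both DMSO replicate 3 and HC278 replicate 6, 8 members were higher and 14 lower, beside 3048 and 3274 of all genes. Over all genes DESeq2 called 1434 lower, the length trend fit 1264 higher and 1427 lower, and the fit with no filter 553 higher. The causes were not tested.

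The labels give replicates 1 and 2 in both groups, and numbers 3 and 6 stand in 1 group each, so that in the fit of 6 libraries with the number as a block the fold change rests on the other 4 libraries. With the replicate block 9 members were higher and 18 lower, beside 3954 and 4218 of all genes. Deviations from the group means correlated at 0.52 for number 1 and 0.18 for number 2 across genes, against 0.38 and 0.33 for unlike numbers 1 and 2 and 0.69 for HC278 replicate 6 with DMSO replicate 3. For libraries of the same number the labels state no pairing.

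Some members not called in the main comparison changed sign; of these, GNA13 and PDE10A were called lower with the replicate block (log2 -0.27 and -0.52, adjusted p = 0.0105 and 0.00538), and PDE10A without HC278 replicate 6. The log2 value of RGS10 was -0.0143 with library size alone, -0.0439 with limma-voom and -0.17 after correction for length, which put RGS19 at -0.0178 and GNAT2 at -0.0153. GNA13 was at 0.0225 with upper quartile factors, and RGS12 at -0.0167 with DESeq2 and -0.0232 with no filter. With the replicate block the values were -0.0178 for GNAT2, -0.0521 for GNA15, 0.0072 for RGS20, -0.0682 for PDE5A and -0.123 for PDE9A, and without DMSO replicate 3 and HC278 replicate 6 they were -0.0226 for GNAT2, -0.051 for GNA15, 0.0077 for RGS20, -0.0682 for PDE5A and -0.124 for PDE9A. With 1 library left out, values ran over -0.259 to 0.316 for RGS10, -0.0502 to 0.0522 for RGS12, -0.0464 to 0.233 for RGS19, -0.344 to 0.0463 for RGS20, -0.384 to 0.116 for GNA13, -0.232 to 0.699 for GNA15, -0.089 to 0.316 for GNAT2, -0.48 to 0.137 for PDE4D, -0.245 to 0.473 for PDE5A, -0.11 to 0.298 for PDE9A and -0.621 to 0.0228 for PDE10A. The 5 tested members with at most 28 counts in a library (ADCY5, GNA15, GNAT2, PDE9A and RGS17) had an SE from 0.31 to 0.64, and members with more counts, such as RGS10 (0.33) and PDE5A (0.37), had an SE in the same range.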
